A study of Mus musculus with 12 samples.

Results

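Muscle calcium handling genes were followed in lower abdominal muscle of mice that carry human aromatase, the enzyme that converts androgens into oestrogens. The 8 genes were set by symbol, and every probe that the array's annotation assigns to them was read: the calsequestrins Casq1 and Casq2, the pump regulators Sln (sarcolipin) and Pln (phospholamban), the calcium pumps Atp2a1 and Atp2a2, the release channel Ryr1 and the buffer Pvalb (parvalbumin). They are 8 of 19057 named genes on the array and hold 16 of its 45281 probes. Of these probes 14 were detected on at least 4 of the 12 arrays, so that all 8 genes were tested, among 10575 genes in all.

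Total RNA came from 1-month-old male mice of the FVB/N strain, hybridised as biotin-labelled cRNA to Illumina bead arrays. Each of 3 groups had 4 arrays: wild type mice (WT), which served as controls, and mice of the lines AromhumL and AromhumH, both transgenic for a humanized aromatase, with the lower human aromatase expression in AromhumL and the higher in AromhumH. The promoter that drives the transgene, the number of founders behind each line and whether animals were pooled are not stated in the labels. Nor do the labels say that replicates were separate animals. The p-values here rest on the scatter among arrays of a group, and that scatter may be technical.

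In skeletal muscle, an action potential opens the ryanodine receptor Ryr1 in the sarcoplasmic reticulum, and calcium held there by calsequestrin flows out and starts contraction. Calcium is then pumped back by the SERCA pumps, of which Atp2a1 (SERCA1) is the form of fast fibres and Atp2a2 (SERCA2) that of slow fibres and heart, while small membrane proteins such as sarcolipin and phospholamban restrain the pumps. Parvalbumin, a soluble buffer of fast fibres, takes up calcium in the cytosol and shortens relaxation.

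The promoters of both calsequestrin genes are shown because the balance of these isoforms separated AromhumH from the other groups. They are RefSeq sequences of build GRCm38.p6, from 250 bases before to 50 bases after the start site, 5′ to 3′ on the gene's own strand: chr1:172219846-172220145, minus strand, for Casq1 and chr3:102086165-102086464, plus strand, for Casq2. Capitals mark E-boxes (CANNTG), the motif bound by MyoD and related myogenic factors, and matches to the MEF2 motif, both searched on both strands.
Casq1: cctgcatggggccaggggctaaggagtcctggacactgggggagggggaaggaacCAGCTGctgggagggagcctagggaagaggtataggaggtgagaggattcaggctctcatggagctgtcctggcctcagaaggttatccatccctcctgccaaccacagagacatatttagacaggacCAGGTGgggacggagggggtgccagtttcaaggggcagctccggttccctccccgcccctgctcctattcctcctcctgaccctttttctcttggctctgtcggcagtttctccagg
Casq2: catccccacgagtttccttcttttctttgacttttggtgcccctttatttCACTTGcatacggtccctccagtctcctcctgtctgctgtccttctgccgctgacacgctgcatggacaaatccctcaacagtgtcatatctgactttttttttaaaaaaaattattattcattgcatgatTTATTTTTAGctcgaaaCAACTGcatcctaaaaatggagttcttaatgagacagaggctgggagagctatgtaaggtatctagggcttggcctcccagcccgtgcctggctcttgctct
The Casq1 window held 2 E-boxes, CAGCTG and CAGGTG, and 0 MEF2 matches. The Casq2 window held 2 E-boxes, CACTTG and CAACTG, and 1 MEF2 match, TTATTTTTAG, which overlaps neither of them. The hexamers AGGTCA, core of the oestrogen response element, and AGAACA, core of the androgen response element, had 0 matches in both windows. Of 32851 RefSeq promoters of 300 bases, 72.3% held an E-box, 3.19% a MEF2 match, 16.3% AGGTCA and 19% AGAACA. A match describes letters in this window and is not a measured binding site. Promoters were matched for 6 of the 8 genes.

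Muscle of the high-aromatase line held more mRNA of the cardiac and slow-fibre calsequestrin Casq2 than either other group, and more of the pump inhibitor Sln than the low-aromatase line. The Casq2 call against WT sat at the threshold and held in 3 of 12 fits that each left out 1 array. Between the lines, array brightness and line cannot be told apart, and 0 genes were called with brightness as a covariate. On their brightest probes, the pumps, parvalbumin and phospholamban differed by 0.11 or less on the log2 scale in either contrast with AromhumH. Of these, Pln was near background (detected on 4 of 12 arrays), and Atp2a1 and Pvalb were close to the highest value on the arrays. Whether that narrows their differences was not tested. At an adjusted p under 0.05 (limma, Benjamini-Hochberg adjustment over 10575 genes), 1 of the 8 genes rose in AromhumH against WT (Casq2), where 0.879% of all genes did, and 0 fell, where 0.303% of all genes did. Against AromhumL, 2 of 8 rose in AromhumH (Casq2 and Sln; 4.02% of all genes) and 0 fell (2.01%). Between AromhumL and WT, 0 of 8 were called by limma, as were 0 (0%) of all genes, and 0 of the 8 had an unadjusted p under 0.05 against 885 genes in all (8.37%). The median log2 difference of the 8 genes was -0.01 in AromhumH against WT, -0.04 in AromhumL against WT and 0.04 in AromhumH against AromhumL, beside medians over all genes of 0.01, 0.01 and -0.00. The contrasts share groups and are not independent of each other.

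**Figure D1:**
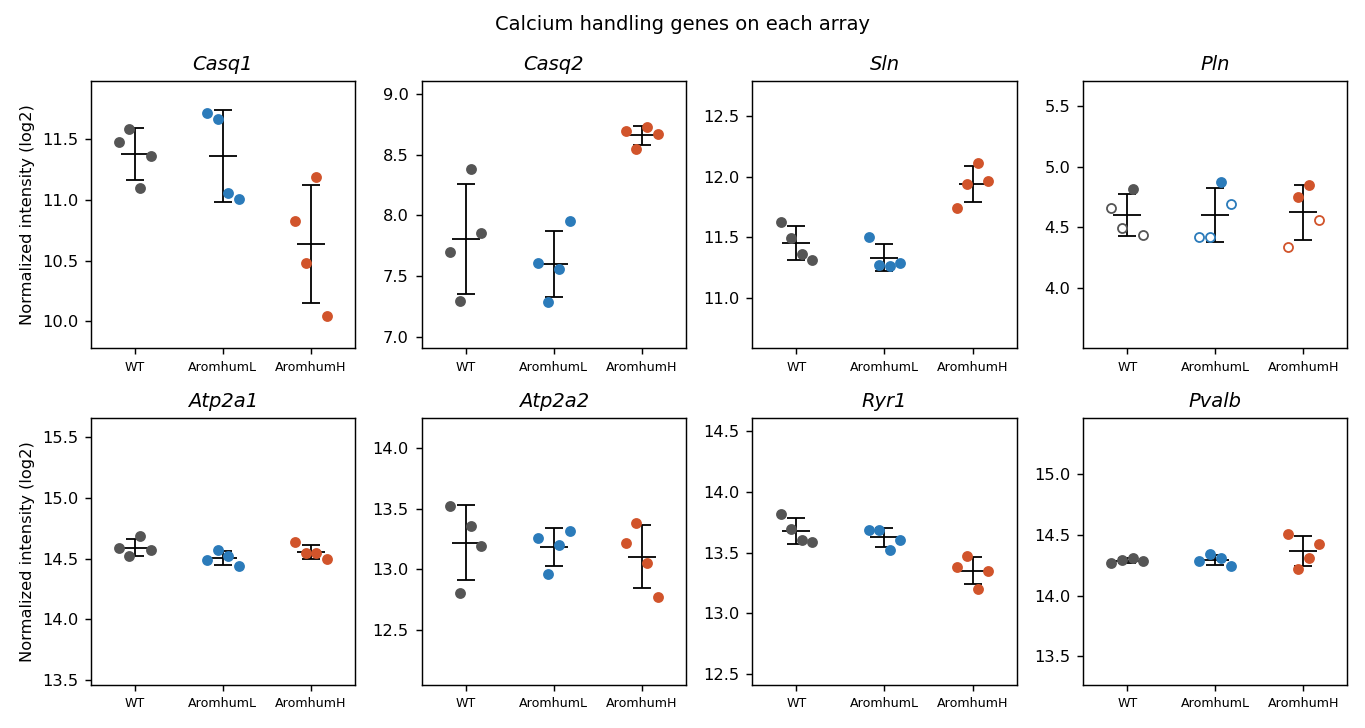
Normalized log2 intensity (y axis) of the brightest probe of each of the 8 genes on every array, by group (x axis). Points are arrays, open where the probe was not detected, and lines are group means with SD, n = 4. Casq2 and Sln stand higher on all 4 AromhumH arrays, and Ryr1 lower, than on any other array.

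Casq2 is the calsequestrin of heart, also made in slow fibres, and binds calcium inside the sarcoplasmic reticulum. Its probe (ILMN_1247775) gave log2 intensities of 7.70, 7.29, 8.39 and 7.86 on the WT arrays. On the AromhumL arrays it gave 7.61, 7.29, 7.56 and 7.95. On the AromhumH arrays it gave 8.70, 8.55, 8.73 and 8.67. Every AromhumH array was above every other array, and these 4 lay close together (8.66 ± 0.0773, SD, n = 4), while the WT arrays spread most (7.81 ± 0.453, SD, n = 4) and overlapped with AromhumL (7.60 ± 0.274, SD, n = 4). The level in AromhumH was 1.81-fold that in WT (log2 difference 0.85, SE 0.195, adjusted p = 0.046, limma) and 2.08-fold that in AromhumL (1.06, SE 0.195, adjusted p = 0.013). AromhumL and WT differed by -0.21 (95% interval -0.62 to 0.21, adjusted p = 0.765), within their spread. The raw intensity, before any normalization, was 446 to 637 in AromhumH, 209 to 486 in WT and 182 to 259 in AromhumL, so that AromhumH and WT overlapped on that scale.

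The contrast of Casq2 between AromhumH and WT sat at the threshold. The adjusted p passed it in 3 of 12 fits that each left out 1 array: 0.0168 without WT 3, 0.0475 without AromhumL 2 and 0.0471 without AromhumL 4. It missed it at 0.13 without WT 1, 0.0858 without WT 2, 0.0853 without WT 4, 0.0986 without AromhumH 1, 0.105 without AromhumH 2, 0.055 without AromhumH 3, 0.116 without AromhumH 4, 0.058 without AromhumL 1 and 0.0541 without AromhumL 3. The log2 difference itself stayed between 0.68 and 1.05. Against AromhumL the call held in 12 of 12 such fits, with differences of 0.95 to 1.18. On the authors' processed values that difference was 0.69 (adjusted p = 0.0267) and the one against WT 0.56 (adjusted p = 0.0623).

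Casq1 is the main calsequestrin of fast fibres. Its probe (ILMN_2773330) gave 11.48, 11.59, 11.10 and 11.36 in WT and 11.71, 11.66, 11.06 and 11.01 in AromhumL. In AromhumH it gave 10.83, 10.49, 11.19 and 10.05. AromhumH 3 lay within the range of both other groups, and the other 3 AromhumH arrays lay below every array of either group. The mean was 10.64 ± 0.486 in AromhumH, 11.38 ± 0.211 in WT and 11.36 ± 0.379 in AromhumL (SD, n = 4 each). The differences did not pass the threshold: -0.74 against WT (SE 0.227, adjusted p = 0.115, limma) and -0.72 against AromhumL (SE 0.227, adjusted p = 0.0678). Over the fits that each left out 1 array they ran from -0.55 to -0.93 against WT and from -0.53 to -0.91 against AromhumL. The smaller sizes came without AromhumH 4 (adjusted p = 0.32 and 0.188) and the larger without AromhumH 3 (adjusted p = 0.0379 and 0.0212), the only fit of the 12 that passed. AromhumL and WT differed by -0.02 (95% interval -0.50 to 0.46, adjusted p = 0.988).

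Because the calsequestrins are measured on the same array, their balance was followed as the log2 intensity of Casq2 minus that of Casq1. Different probes have no common scale, so only the change of this number between groups is read. It was -3.57 ± 0.661 in WT (range -4.29 to -2.71), -3.76 ± 0.596 in AromhumL (-4.38 to -3.05) and -1.98 ± 0.454 in AromhumH (-2.46 to -1.38; SD, n = 4 each). The AromhumH arrays all stood above the arrays of the other groups, and WT overlapped with AromhumL. The same difference for the pumps, Atp2a2 minus Atp2a1, was -1.37 ± 0.271 in WT, -1.45 ± 0.230 in AromhumH and -1.32 ± 0.209 in AromhumL (SD, n = 4 each), with all 3 groups overlapping. Both balances describe values already given and carry no test of their own.

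**Figure D2:**
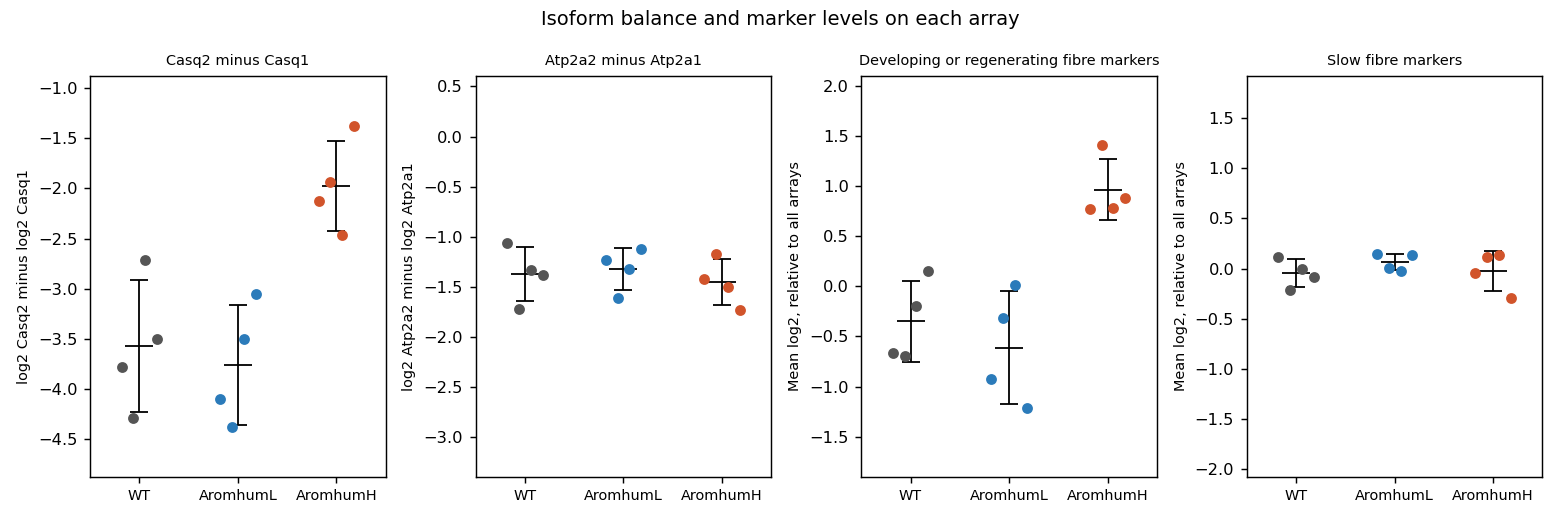
Isoform balance as a log2 difference between probes and the mean log2 level of developing fibre and slow fibre markers relative to the mean over all arrays (y axes), by group (x axes), 1 point an array, with lines for group means and SD. The Casq2 minus Casq1 balance is -2.46 or higher on all AromhumH arrays and -2.71 or lower on all others, while the pump balance overlaps between groups.

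The presence of other cells or fibre states was read from marker lists on the same arrays. The 4 measured markers of developing or regenerating fibres (of 5 listed, Myh3 has no named probe) had a mean level, relative to the mean over all arrays, of 0.77 to 1.41 in AromhumH, -0.69 to 0.15 in WT and -1.21 to 0.02 in AromhumL. On this mean of the list, AromhumH stood apart from both groups as it did for Casq2. Of these 4, 2 rose in AromhumH against WT, where 0.879% of all genes did. They were Myh8, the perinatal myosin heavy chain (log2 difference 3.14, adjusted p = 0.0341), and Ncam1, an adhesion molecule of immature and denervated fibres (1.02, adjusted p = 0.0107). All 4 rose against AromhumL, where 4.02% of all genes did. Among them were Actc1, the cardiac actin that is also made in developing muscle (1.54, adjusted p = 0.0206), and Myog, a myogenic transcription factor (0.89, adjusted p = 0.0215). Against WT, Actc1 (0.49, adjusted p = 0.492, limma) and Myog (0.60, adjusted p = 0.135) were not called and their arrays overlapped. Myh8 overlapped between AromhumH and AromhumL. Gene by gene, only Ncam1 was higher on all AromhumH arrays than on any other, as were 5.34% of all genes against WT and 7.73% against AromhumL. The 7 slow fibre markers were all measured and 0 were called by limma in any contrast (medians 0.04, 0.09 and -0.01 in AromhumH against WT, AromhumL against WT and AromhumH against AromhumL). They went both ways: in AromhumH against WT 4 had a positive and 3 a negative difference, from -0.49 for Myh7, the slow myosin heavy chain (adjusted p = 0.39), to 0.34 for Tnnt1, the slow troponin T, which was higher on all AromhumH arrays (adjusted p = 0.152). Against AromhumL 3 were positive and 4 negative, from -0.84 for Myh7 (adjusted p = 0.0776) to 0.28 for Tnnc1 (adjusted p = 0.232). Tnnc1, the slow and cardiac troponin C, and Tnnt1 were higher on all AromhumH arrays than on any AromhumL array. Myl3 was lower on all of them (-0.32, adjusted p = 0.144). Of the 7 slow fibre markers, 3 thus separated AromhumH from AromhumL, where 15.8% of all genes did. Tnnt1 alone, 1 of the 7, separated AromhumH from WT, where 8.67% of all genes did. The 7 fast fibre markers had medians of -0.05, -0.02 and -0.02, with 0 called. In AromhumH 6 were negative and 1 positive against WT, and 4 were negative and 3 positive against AromhumL. Actn3 was lower on all AromhumH arrays than on any other, at -0.11 against WT and -0.10 against AromhumL (adjusted p = 0.66 and 0.609, limma). The shares of all genes lower in that way were 3.33% and 8.05%. Myh1 read 13.46 to 13.71 in WT, but other fast fibre probes were close to the highest value on the arrays, 14.72. Among them were Mylpf (14.69 to 14.72 in WT) and Tnni2 (14.57 to 14.62 in WT). Whether that narrows their differences was not tested. All 6 general markers of skeletal muscle passed the detection filter and 0 were called. Of these 6, 0 separated AromhumH from WT (8.67% of all genes). Another 3 separated AromhumL from WT (Acta1 and Mb below, Des above), where 4.24% of all genes did. Mb alone separated AromhumH from AromhumL (0.32, adjusted p = 0.0956, limma), where 15.8% did. Acta1 (14.42 to 14.51 in WT) and Ckm (14.36 to 14.47 in WT) were also close to the highest value on the arrays.

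Of the heart markers, Nppa, Nppb, Myl7 and Tnni3 were below the detection filter and Myh6 differed by 0.05 in AromhumH against WT (adjusted p = 0.927, limma). Mesothelial markers, from the lining of the abdominal wall, stood at 0.58 to 1.45 in AromhumH, -1.13 to -0.39 in WT and -1.004 to 0.20 in AromhumL. In AromhumH 5 of 5 rose against WT and 4 of 5 against AromhumL, where 0.879% and 4.02% of all genes rose. Against WT the log2 difference was 2.13 for Krt8 and 1.92 for Msln (adjusted p = 0.00794 for each), 1.83 for Upk1b (0.0145) and 0.97 for Upk3b (0.0251). Of 5 fibroblast markers 1 rose against AromhumL (Col1a1, a fibril collagen chain, 1.25, adjusted p = 0.0486), where 4.02% of all genes did. Against WT, Col1a1 differed by 0.01 in AromhumH (adjusted p = 0.993, limma) and by -1.24 in AromhumL (adjusted p = 0.57). Fibroblast levels were -0.25 to 0.46 in AromhumH, -0.16 to 0.64 in WT and -0.64 to -0.11 in AromhumL. Of 3 measured smooth muscle, 4 white adipocyte, 1 brown adipocyte (Ucp1 not detected) and 2 erythroid markers, 0 were called. White adipocyte markers ranged from -1.36 to 1.88 in AromhumH, -0.32 to 1.15 in WT and -0.61 to 0.23 in AromhumL. The part of these markers in the calcium gene results was not tested. In bulk tissue, fewer cells of a type and less RNA per cell cannot be told apart.

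Sarcolipin, encoded by Sln, binds SERCA pumps and lowers the calcium they carry for each ATP used. Its detected probe (ILMN_2918875) gave 11.63, 11.50, 11.36 and 11.32 in WT. In AromhumL it gave 11.50, 11.27, 11.26 and 11.29. In AromhumH it gave 11.74, 11.94, 12.11 and 11.97. All AromhumH arrays were above all others, and WT and AromhumL overlapped. AromhumH (11.94 ± 0.151, SD, n = 4) was 1.52-fold above AromhumL (11.33 ± 0.113; log2 difference 0.61, SE 0.126, adjusted p = 0.0196, limma). Against WT (11.45 ± 0.140, n = 4) the difference was 0.49 (1.40-fold, SE 0.126), with an adjusted p of 0.0684, which misses the threshold. It passed in 4 of 10 other settings (adjusted p = 0.0341 on the authors' processed values, 0.031 without background correction, 0.0427 with trend and robust options and 0.0486 with array brightness as a covariate) and in 0 of 12 fits without 1 array. AromhumL and WT differed by -0.12 (95% interval -0.39 to 0.15, adjusted p = 0.791). Against AromhumL, the call was lost without AromhumH 2 (adjusted p = 0.0512), without AromhumH 4 (0.0602) or without AromhumL 4 (0.0534). The other Sln probe (ILMN_2662878) was detected on 0 of 12 arrays and gives no second reading.

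Array brightness bears on the contrast between the transgenic lines. The mean raw intensity of the AromhumH arrays was 296.08 to 373.21 and that of the AromhumL arrays 221.62 to 273.94, with no overlap, and the WT arrays ran from 267.37 to 361.71. With brightness as a covariate, 0 genes in all were called between AromhumH and AromhumL. In that fit the log2 difference was 0.75 for Casq2 (SE 0.253, adjusted p = 0.495, limma) and 0.83 for Sln (SE 0.156, adjusted p = 0.335). Brightness and line cannot be told apart in this contrast. Against WT, where brightness overlapped, Casq2 differed by 0.78 in that fit (adjusted p = 0.0625).

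**Figure D3:**
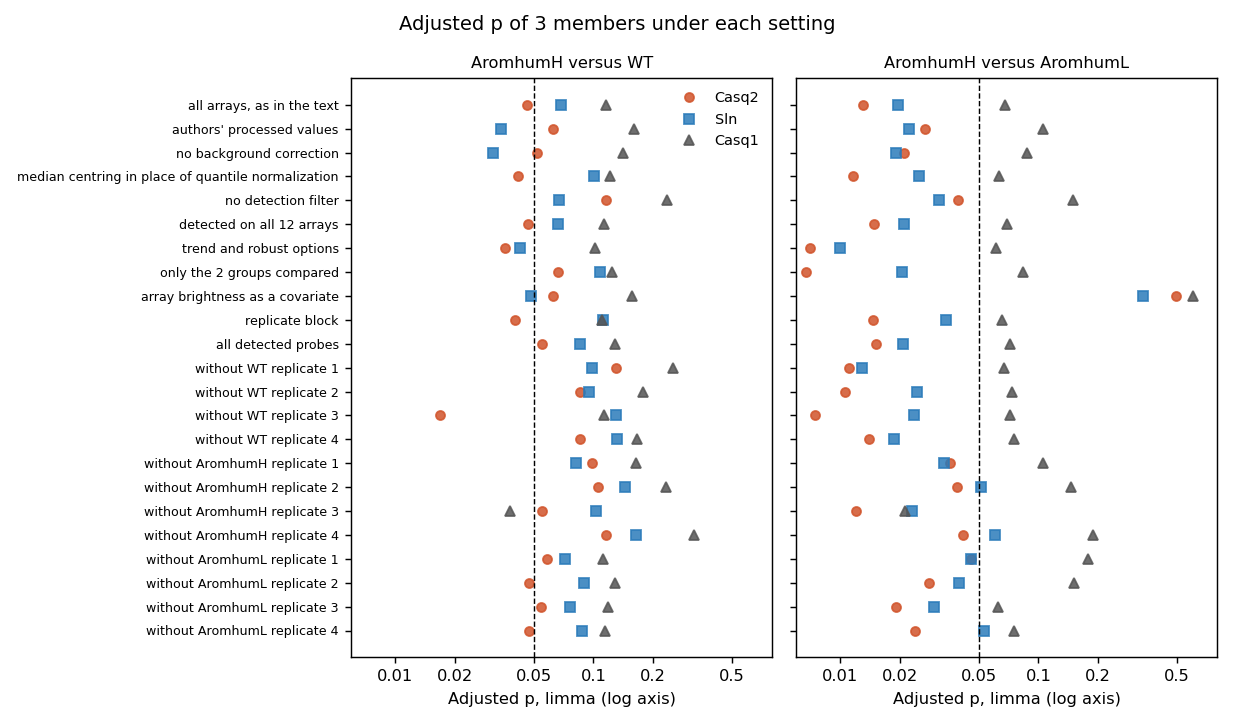
Adjusted p from limma (x axis, log scale, dashed line at 0.05) of Casq2, Sln and Casq1 under each processing setting and without each array (y axis). Casq2 against AromhumL lies left of the line in every setting except array brightness as a covariate, while Casq2 against WT lies on both sides of it.

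Phospholamban, encoded by Pln, is the SERCA inhibitor of heart and slow fibres. Its only probe (ILMN_2854828) was near background: it was detected on 4 of 12 arrays, WT 3, AromhumH 2, AromhumH 3 and AromhumL 3. The log2 intensities were 4.66, 4.49, 4.82 and 4.44 in WT, 4.34, 4.75, 4.85 and 4.56 in AromhumH and 4.42, 4.42, 4.87 and 4.69 in AromhumL. The groups overlapped throughout, and the lowest detected probe of each array lay at 4.60 to 4.73. The difference between AromhumH and WT was 0.02 (adjusted p = 0.97, limma), and at this signal a difference was not detectable.

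Atp2a1 encodes SERCA1, the calcium pump of fast fibres. Its probe (ILMN_2666864) was among the brightest on every array, at rank 2 to 21 of all probes. It gave 14.59, 14.53, 14.69 and 14.57 in WT, 14.64, 14.55, 14.55 and 14.50 in AromhumH and 14.49, 14.57, 14.53 and 14.44 in AromhumL. The groups overlapped. The differences were -0.03 in AromhumH against WT (95% interval -0.26 to 0.20, adjusted p = 0.924), -0.09 in AromhumL against WT (-0.31 to 0.14, adjusted p = 0.828) and 0.05 between the lines (-0.18 to 0.28, adjusted p = 0.805). The signs of Atp2a1 do not hold, since AromhumH against WT was 0.05 with median centring and AromhumH against AromhumL was -0.02 with brightness as a covariate. The highest normalized value was 14.72 on every array, so this probe had little room above it, and whether that narrows its differences was not tested.

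Atp2a2 encodes SERCA2, the pump of slow fibres and heart. Its brightest probe (ILMN_1245425) gave 13.52, 12.81, 13.35 and 13.19 in WT, 13.22, 13.38, 13.05 and 12.77 in AromhumH and 13.26, 12.96, 13.20 and 13.32 in AromhumL. All groups overlapped. The differences were -0.11 in AromhumH against WT (95% interval -0.47 to 0.25, adjusted p = 0.797), -0.04 in AromhumL against WT (-0.39 to 0.32, adjusted p = 0.963) and -0.08 between the lines (-0.44 to 0.28, adjusted p = 0.817). The other detected probes gave 0.03 (ILMN_1239742) and 0.10 (ILMN_2450031) in AromhumH against WT and -0.21 and 0.21 between the lines, with adjusted p of 0.29 or more over all detected probes. The dimmer of them, ILMN_2450031, lay higher on all AromhumH arrays than on any WT or AromhumL array, as did 4.45% and 7.15% of detected probes. The probe ILMN_1242459 was detected on 0 arrays.

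Ryr1 encodes the release channel of skeletal muscle. Its brightest probe (ILMN_2733073) gave 13.82, 13.69, 13.61 and 13.59 in WT and 13.69, 13.69, 13.52 and 13.60 in AromhumL. In AromhumH it gave 13.38, 13.47, 13.20 and 13.35, below every array of both other groups. Genes lower on all AromhumH arrays made up 3.33% of all genes against WT and 8.05% against AromhumL. The mean was 13.35 ± 0.111 in AromhumH, 13.68 ± 0.106 in WT and 13.62 ± 0.0778 in AromhumL (SD, n = 4 each). The differences were -0.33 against WT (SE 0.116, adjusted p = 0.166, limma) and -0.28 against AromhumL (SE 0.116, adjusted p = 0.154), and neither passed the threshold. AromhumL and WT differed by -0.05 (adjusted p = 0.915), a sign that turned to 0.03 with median centring.

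Of 5 detected Ryr1 probes, all 5 were lower in AromhumH than in WT, by -0.14 to -0.34, and 0 were called, where 0.752% of detected probes were. These probes share 1 gene symbol and the same arrays and are not replicates. Between the lines 0 were called, where 4.74% of detected probes were. There 4 were lower in AromhumH (-0.03 to -0.36), among them ILMN_2842357, below AromhumL on every array as 7.76% of detected probes were. ILMN_1258021, annotated to AK081432, was higher (0.47, adjusted p = 0.0779, limma, over all detected probes). It lay above AromhumL on every AromhumH array, as 7.15% of detected probes did. That probe was also the 1 on which all AromhumL arrays lay below all WT arrays (-0.64, adjusted p = 0.653), as 1.73% of detected probes did, with a highest AromhumL value of 5.63 and a lowest WT value of 5.64. It is a dim probe, with raw intensities of 89.0 to 149 against 9493 to 15256 for the brightest one.

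**Figure D4:**
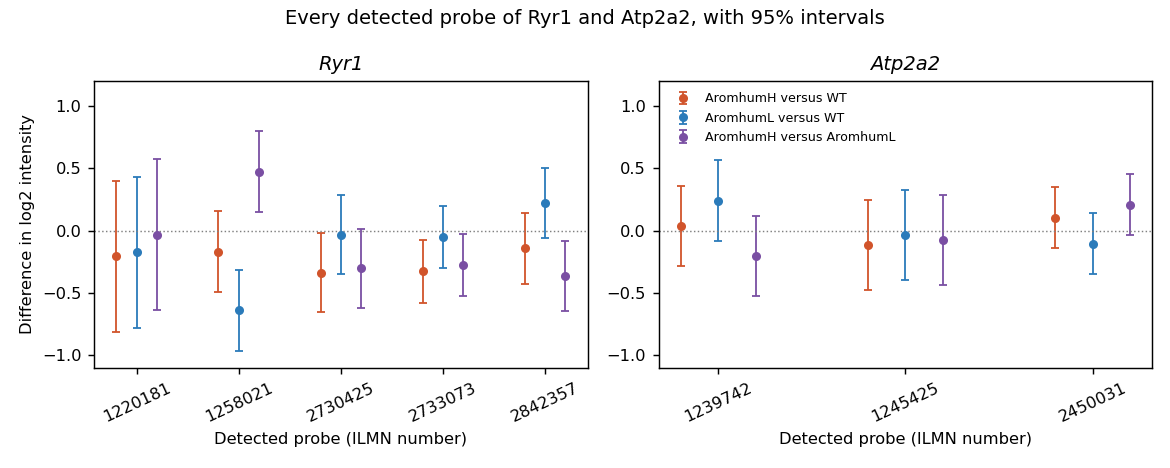
Difference in log2 intensity (y axis) for each detected probe of Ryr1 and Atp2a2 (x axis, ILMN number) in the 3 contrasts, with 95% intervals from limma. All 5 Ryr1 probes have a negative estimate in AromhumH against WT, and the probes of Atp2a2 scatter around 0.

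Parvalbumin, encoded by Pvalb, buffers cytosolic calcium in fast fibres. Its probe (ILMN_1218223) gave 14.27, 14.30, 14.31 and 14.28 in WT, 14.28, 14.34, 14.31 and 14.25 in AromhumL and 14.51, 14.22, 14.31 and 14.43 in AromhumH. WT and AromhumL overlapped, and the AromhumH arrays lay on both sides of them. The differences were 0.08 in AromhumH against WT (95% interval -0.16 to 0.31, adjusted p = 0.784), 0.01 in AromhumL against WT (-0.23 to 0.24, adjusted p = 0.99) and 0.07 between the lines (-0.16 to 0.31, adjusted p = 0.735). Like Atp2a1 it was close to the highest value on the arrays, at rank 13 to 47.

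**Figure D5:**
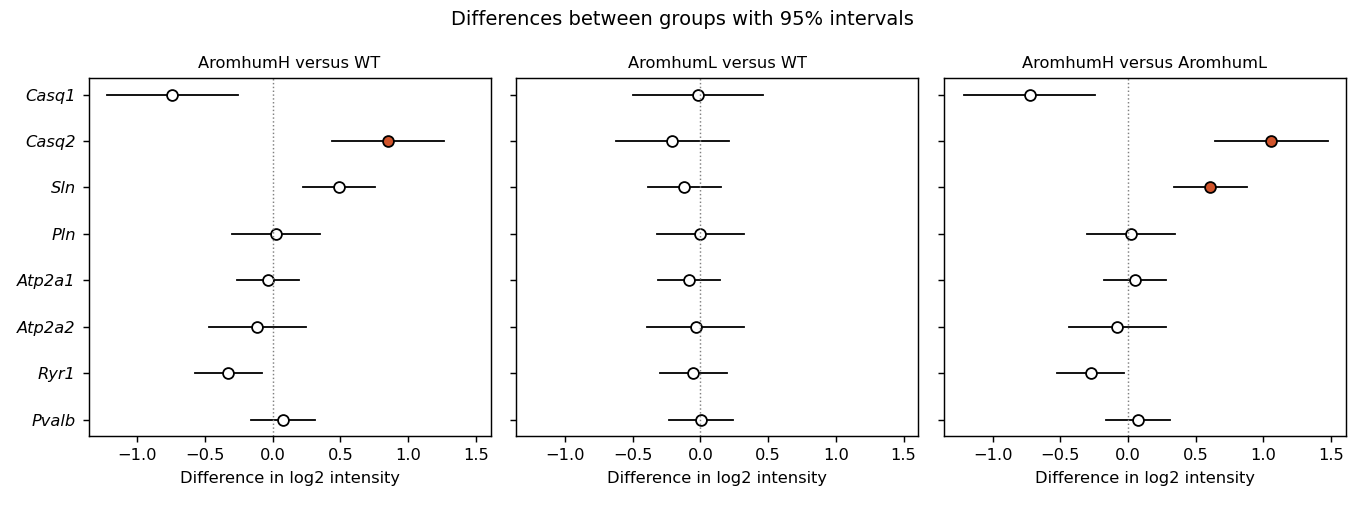
Difference in log2 intensity (x axis) for the brightest probe of each of the 8 genes (y axis) in the 3 contrasts, with 95% intervals from limma. Filled circles mark an adjusted p under 0.05. Casq2 and Sln lie to the right of 0 in both contrasts with AromhumH, while the intervals of Pln, Atp2a1, Atp2a2 and Pvalb include 0 in all 3.

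Counted by whether arrays overlap, 3 of the 8 genes separated AromhumH from WT (Casq2 and Sln above, Ryr1 below), where 8.67% of all genes did (5.34% above, 3.33% below). The same 3 separated AromhumH from AromhumL, where 15.8% did (7.73% above, 8.05% below), and 0 separated AromhumL from WT, where 4.24% did.

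A wider list of 57 genes of calcium release, reuptake, entry and signalling was read in the same way. Of these 51 had a named probe and 47 were tested; Ryr2, Ryr3, Trdn and Fkbp1b were below the detection filter. By limma 0 of 47 changed in AromhumH against WT, where 0.879% of all genes rose and 0.303% fell, and 0 in AromhumL against WT, with 8 and 6 at an unadjusted p under 0.05, beside 16.7% and 8.37% of all genes. In AromhumH against AromhumL 3 of 47 rose and 0 fell, where 4.02% of all genes rose and 2.01% fell. The 47 genes' median differences were -0.01, 0.01 and 0.02 in the 3 contrasts, beside 0.01, 0.01 and -0.00 over all genes. Counted by array overlap in either direction, 5 of 47 separated AromhumH from WT (8.67% of all genes) and 2 separated AromhumL from WT (4.24%). Between the lines 10 of 47 did (15.8%). With all detected probes in place of the brightest, 2 further genes were called lower against AromhumL, each on a dimmer probe: Camk2a, a calmodulin-dependent kinase (-0.77, adjusted p = 0.0208), and Jph1, which ties the reticulum to the transverse tubules (-0.75, adjusted p = 0.0329). On that probe Camk2a was also lower against WT (-0.90, adjusted p = 0.019). The brightest Camk2a probe gave 0.15 against AromhumL (adjusted p = 0.591) and -0.15 against WT (adjusted p = 0.679), so its probes disagree, and the brightest Jph1 probe gave -0.19 against AromhumL (adjusted p = 0.297). On the brightest probes, the 3 that rose were Calu and Selenon, from the 12 tested genes of the release complex and store lumen, and Micu2, from the 4 tested genes of mitochondrial uptake.

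Calu encodes calumenin, a calcium-binding protein of the secretory pathway. Its log2 intensity was 10.40 to 10.75 in AromhumH, 10.01 to 10.27 in WT and 9.65 to 10.22 in AromhumL. AromhumH thus lay above both groups, as for 5.34% of all genes against WT and 7.73% against AromhumL. Calu was 0.66 higher in AromhumH than in AromhumL (adjusted p = 0.02, limma) and 0.42 higher than in WT (adjusted p = 0.139). The call was lost without AromhumH 1 (0.0537), AromhumH 2 (0.0512), AromhumH 4 (0.0705), AromhumL 1 (0.0709) or AromhumL 4 (0.0594). Its other probes differed by 0.69 (ILMN_1228287, adjusted p = 0.0312), 0.03 (ILMN_1216590) and -0.47 (ILMN_1218668), so they disagree in direction. ILMN_1216590 and ILMN_1218668 are dim, with means of 4.77 and 5.67 in AromhumH and 4.74 and 6.14 in AromhumL. ILMN_1228287 had means of 10.24 and 9.55 in these groups.

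Selenon encodes a selenoprotein of the reticulum that is mutated in congenital muscle disease of humans. Its log2 intensity was 8.81 to 9.36 in AromhumH, 8.48 to 9.04 in WT and 8.24 to 8.79 in AromhumL. AromhumH lay above AromhumL, as for 7.73% of all genes, and overlapped with WT. The difference between the lines was 0.67 (adjusted p = 0.0339, limma) and that against WT 0.39 (adjusted p = 0.255). In the fit that holds brightness constant, the former was 0.35 (adjusted p = 0.658), and without the detection filter its adjusted p was 0.0676. The call between the lines was lost without AromhumH 1 (0.0944), AromhumH 2 (0.086), AromhumH 4 (0.0981), AromhumL 1 (0.108), AromhumL 2 (0.0634) or AromhumL 4 (0.0765).

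Micu2 encodes a regulator of the mitochondrial calcium uniporter. Its log2 intensity was 10.44 to 10.57 in AromhumH, 9.95 to 10.21 in WT and 9.96 to 10.16 in AromhumL. AromhumH thus lay above both, as for 5.34% of all genes against WT and 7.73% against AromhumL. Micu2 differed by 0.44 between the lines (adjusted p = 0.0371, limma) and by 0.46 against WT (adjusted p = 0.0628). The call between the lines was lost without AromhumH 1 (0.0952), AromhumH 2 (0.0788), AromhumH 4 (0.0804), AromhumL 1 (0.0975), AromhumL 2 (0.0866) or AromhumL 4 (0.0739). Its other probe (ILMN_2899174) differed by -0.04 against WT and by -0.00 between the lines, so the difference rests on 1 of 2 probes.

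In the other roles 0 genes were called by limma on their brightest probes. For the voltage sensor and triad (8 tested), the smallest p over the contrasts was that of Tmem38a, a potassium channel of the reticulum, at -0.55 in AromhumL against WT (adjusted p = 0.587). Of the pumps and their regulators outside the 8 genes, only Atp2a3 (SERCA3) was tested, at 0.42 between the lines (adjusted p = 0.155), with 0.63 on its other probe. Against WT the brightest and the other Atp2a3 probe gave 0.36 and 0.08 in AromhumH, and -0.06 and -0.55 in AromhumL. For store-operated entry and surface extrusion (10 tested), the smallest p was that of Stim2, a sensor of the calcium store. It stood at -0.39 between the lines (adjusted p = 0.0957) on one probe and -0.08 on the other. For calcium-dependent signalling (12 tested), the smallest p was that of Rcan1, an inhibitor and target of calcineurin. It stood at 0.67 in AromhumH against WT (adjusted p = 0.107), with 0.19 on its other probe.

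Finally, the genes whose log2 intensities followed each gene most closely over the 12 arrays were listed, out of 10307 genes, by Pearson's r. The arrays share 3 groups, so genes that differ between groups correlate, and these values are a description without a test. Casq2 was followed most closely by Pcna (0.93), Micu2 (0.93) and Cep55 (0.926), the first a replication clamp and the last a cytokinesis protein. Casq1 was followed by Oxa1l (0.946), Chpt1 (0.93) and Gstm1 (0.928). For Sln they were Itpr3 (0.883), another calcium release channel, Ckmt1 (0.881) and Draxin (0.866), and for Ryr1 they were Ddit4l (0.931), Lrrc38 (0.927) and Slc7a2 (0.895). The genes with small differences had their closest partners at Abraxas2 (0.911), Tmem19 (0.896) and Mlf1 (0.895) for Atp2a2, Insig1 (0.879), Dok7 (0.833) and Tmem79 (0.818) for Atp2a1, and Ranbp1 (0.837), Bok (0.828) and Gtse1 (0.827) for Pvalb. Pln, near background, had Mal (0.859), Tpp2 (0.854) and Myo9a (0.84).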

How the data were processed

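Probe intensities of 12 arrays, with a detection p-value for each, were deposited by the authors as not normalized values, per the file headers; scanner software and bead filters are not stated. A processed table of log2 values, also deposited by the authors, had the offset and transformation unstated and served as an alternative. Intensities were corrected against background through the detection p-values, quantile-normalized and converted to log2 with an offset of 16 (neqc, limma 3.58.1, R 4.3.3). Probes with a detection p-value under 0.05 on at least 4 arrays were kept (19004 of 45281). By the platform annotation, 34885 probes carry a unique symbol and 18 carry several. The brightest probe of each gene was tested with lmFit and eBayes on 3 group means over 12 arrays, with Benjamini-Hochberg adjustment over 10575 genes and 95% intervals from the same fit. Between 17198 and 18867 probes were detected per array, arrays of a group correlated at 0.977 to 0.988, and the number of arrays limits the precision (median SE 0.16 log2). The routine was tested on simulated data.

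All 8 genes are named with every probe. Of the wider list, genes past the threshold are named and, for roles with none, the gene with the smallest p. Of each marker list, up to 4 past the threshold are named. Myh7, Tnnt1, Tnnc1, Myl3, Actn3, Myh6, Camk2a and Jph1 were added after their values were seen. So were Myh1, Mylpf, Tnni2, Acta1, Ckm, Mb and Des. Members and lists were chosen with earlier results of these data known. Alternatives were the authors' values, no background correction, median centring, 2 other filters, eBayes options, only the groups compared, array brightness, the replicate number as a block, all detected probes, and each array left out.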

Additional observations from a re-analysis of the deposited data

Results flagged for a closer look

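Among 45 sets of 4 arrays (a named gene in a group), 2 held an array far from the other 3, where chance flags about 5% of such sets. AromhumL 1 had an Sln log2 intensity of 11.5, against 11.26 to 11.29 on the other AromhumL arrays. AromhumH 3 had a Selenon log2 intensity of 8.807, against 9.286 to 9.359 on the other AromhumH arrays.

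The effects of the lines against WT differed for 5 named genes. As both effects use the same WT arrays, this difference equals AromhumH against AromhumL: 1.06 for Casq2 (adjusted p = 0.013, limma), 0.608 for Sln (0.0196), 0.659 for Calu (0.02), 0.669 for Selenon (0.0339) and 0.44 for Micu2 (0.0371).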

How the results depend on the processing

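Casq2 and Sln stayed higher in AromhumH in both contrasts under every alternative run, and what changed was the side of the threshold. Casq2 against WT passed in 4 of 10 other settings (adjusted p 0.0358 to 0.116, limma), and its log2 difference was 0.56 on the authors' processed values and 0.66 without background correction. Against WT, 1 of the 8 genes was called; the count was 0 without the detection filter, 0 with only the 2 groups compared, 0 with all detected probes and 2 with trend and robust options. The gene was Sln in place of Casq2 on the authors' values, without background correction and with brightness as a covariate, and Casq1 without AromhumH 3. Of all genes, 125 changed against WT: 76 on the authors' values and 36 without the filter. Against AromhumL 638 changed: 347 on the authors' values, 210 without the filter and 0 with brightness, where 0 of the 8 and 0 of the wider genes were called. With median centring 394 rose and 345 fell there, beside 425 and 213. In the wider list, 1 gene was called against WT on the authors' values, 1 without background correction and 1 without the filter (Micu2 each time), and 1 with all detected probes (Camk2a); against AromhumL it was 5 with all detected probes.

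Leaving out each array gave 2 (without AromhumH 2) to 316 (without AromhumH 3) genes against WT, 0 to 0 for AromhumL and 64 (without AromhumL 1) to 1060 (without AromhumH 3) between the lines. It gave 0 to 1 of the 8 genes against WT and 1 to 3 between the lines, and 0 to 4 wider genes between the lines.

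Signs that turned belong to differences far from the threshold. With median centring they were Atp2a1 0.051 and Pln -0.064 (AromhumH against WT), Micu2 -0.0022, Pln 0.27 and Ryr1 0.026 (AromhumL against WT) and Pln -0.33 (AromhumH against AromhumL). With brightness they were Stim2 0.028 (AromhumH against WT), Atp2a2 0.037, Atp2a3 0.13, Casq2 0.031 and Pln 0.017 (AromhumL against WT), and Atp2a1 -0.020 and Pln -0.00031 (AromhumH against AromhumL). Without single arrays, AromhumH against WT ran from -0.053 to 0.12 for Pln and -0.10 to 0.064 for Stim2. AromhumL against WT ran from -0.17 to 0.067 for Atp2a2, -0.18 to 0.093 for Atp2a3, -0.14 to 0.10 for Casq1, -0.016 to 0.071 for Micu2, -0.091 to 0.071 for Pln and -0.0087 to 0.024 for Pvalb. AromhumH against AromhumL ran from -0.17 to 0.032 for Atp2a2 and -0.053 to 0.12 for Pln. The causes of these changes were not tested.

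Same-numbered deviations correlated at -0.254 to 0.0338 in AromhumH against WT, 0.0393 to 0.393 in AromhumL against WT and -0.183 to 0.0532 between the lines. In that order, 0, 4 and 0 of 8 samples correlated best with their own number. With 4 arrays a group this check cannot exclude pairing by replicate number. With the replicate number as a block, 108 genes changed against WT and 466 between the lines, the 8 genes gave the same counts, and 1 wider gene was called between the lines (Calu), with adjusted p of 0.0574 for Micu2 and 0.0544 for Selenon. Pln gives no value where detection on all 12 arrays is required, since signal over background limits it.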
